A study of Drosophila melanogaster with 4 samples.

Results

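The chemoreceptor genes of *Drosophila melanogaster* were taken as every gene whose FlyBase symbol starts with Or, Gr or Ir directly followed by a digit, plus Orco. The count tables held 179 of them among 14885 genes: 61 odorant receptor genes (Orco included), 57 gustatory receptor genes and 61 ionotropic receptor genes. The reference names 187 such genes, and the other 8 were not analysed here. RNA had been sequenced from eye-antennal discs of wandering third-instar larvae, the epithelial sacs that give rise to the adult eye, antenna and part of the head. Wild type was represented by Canton S and by RAL-208, an inbred line, with 1 library each, which count as biological replicates. The mutant gl[60j], which carries a mutation of the transcription factor gene glass, gave 2 libraries that are technical replicates of 1 sample, so the mutant group has no biological replicate and its stock background is not separated from the mutation.

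Odorant receptors are ligand-gated channels that work as complexes of a tuning receptor with the common co-receptor Orco. Ionotropic receptors descend from ionotropic glutamate receptors. They act with co-receptors such as Ir8a, Ir25a, Ir76b and Ir93a in smell, taste, humidity and temperature sensing. Gustatory receptors detect sugars, bitter compounds and carbon dioxide. The adult neurons that use these receptors in the antenna arise from the antennal part of the disc, and most of them begin to express their receptors during pupal life, after the stage sampled here.

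The libraries held between 11292175 and 27044633 reads assigned to genes, so that a level of 1 CPM (reads of a gene per 1000000 gene reads of the library) stood for 11.3 to 27.0 reads. A floor of 3 reads corresponded to between 0.111 and 0.266 CPM in single libraries. Intervals and floors given here cover counting error only. The mutated gene gl was at 299 CPM in Canton S, 235 CPM in RAL-208, and 105 and 108 CPM in the mutant libraries. All 5 eye disc markers and all 6 antennal disc markers reached 1 CPM, whereas Orco, the defining marker of odorant receptor neurons, had 2 and 3 reads in wild type against 0 in either mutant library.

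Most chemoreceptor genes had few or no reads in the discs. A level of 1 CPM in at least 1 library was reached by 15 of 179, which is 8.38%, against 63.4% of all genes in the tables. A further 93 had reads but stayed below 1 CPM in every library, and 71 had 0 reads in all 4. The share detected was 14.8% for ionotropic receptor genes (9 of 61), 7.02% for gustatory receptor genes (4 of 57) and 3.28% for odorant receptor genes (2 of 61). Of the 15 genes, 5 reached the threshold in every library, namely Or43b, Ir62a, Gr61a, Ir68a and Ir85a. Another 8 reached it in 1 library only, of which 5 in RAL-208, 2 in Canton S and 1 in the first mutant library. Ir25a at 1.16 CPM was the last gene inside the threshold and Or83a, at 0.990 CPM in Canton S, the first outside it.

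**Figure D1:**
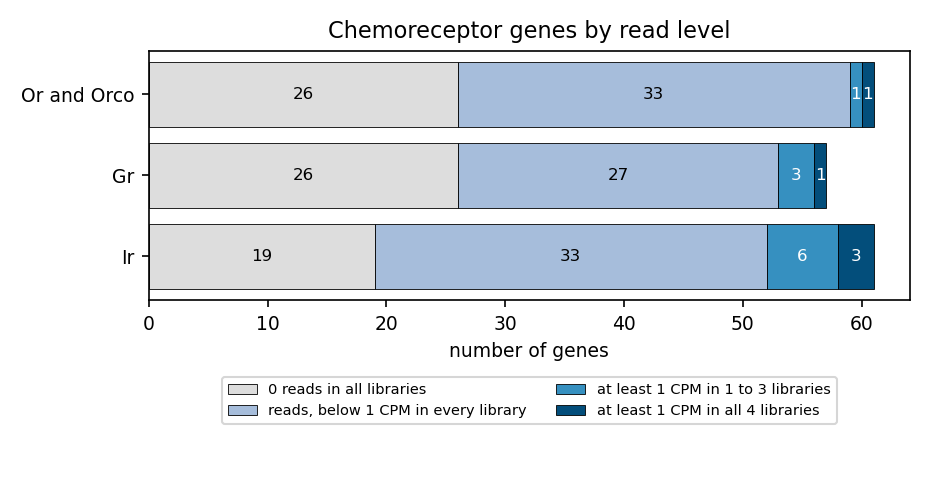
Number of chemoreceptor genes by read level in each family; segments give genes with 0 reads in all libraries, with reads but below 1 CPM everywhere, at or above 1 CPM in 1 to 3 libraries, and in all 4. The detected segments hold 2 Or, 4 Gr and 9 Ir genes.

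Several of the detected genes overlapped other, more abundant genes, and whether counting used strand is not given in the sources used here. In the gene models of the BDGP6 annotation, 6 of the 15 detected genes (40.0%) overlapped another gene of the tables, against 32 of 164 undetected ones (19.5%). Or43b shared 40.7% of its exon length with Cul1, a ubiquitin ligase subunit gene on the opposite strand at 327 to 355 CPM. Ir62a lay inside Iml1 on the same strand without shared exons, Ir85a inside Pif1A on the opposite strand, Gr94a inside p53 and Gr77a inside CG13252. Ir76a shared 14.1% of its exon length with CG14102 on the opposite strand. CG14102 was above Ir76a in the wild types but below it in the mutant libraries, at 9.03 and 8.47 CPM against 25.4 and 25.3. Reads of these receptors cannot be separated with certainty from those of the genes they overlap. Of the 141 members that overlap no other gene, 9 were detected.

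**Figure D2:**
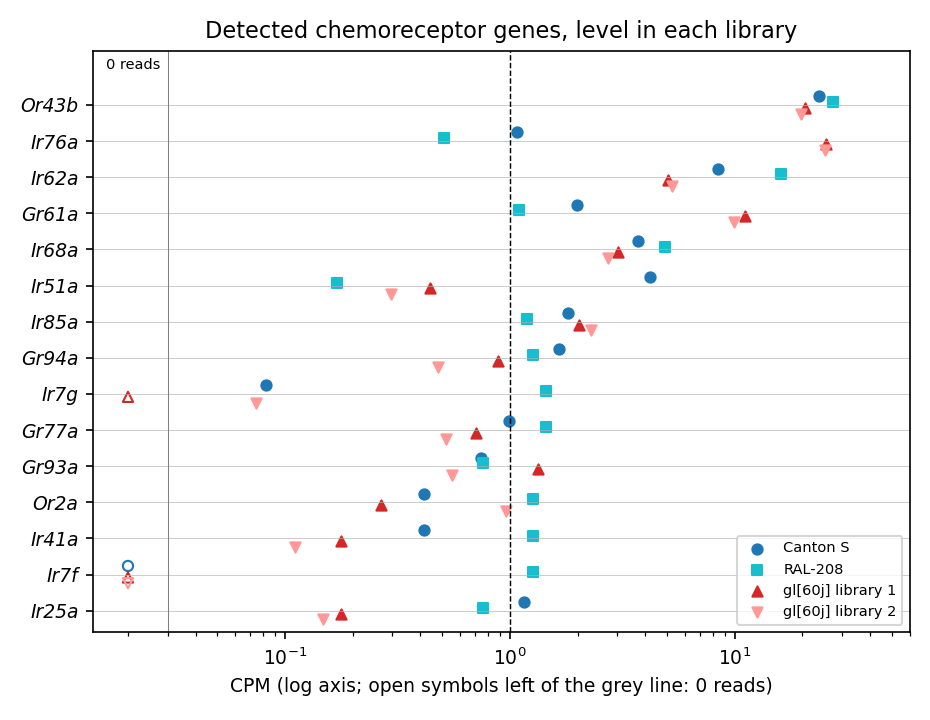
Level of the 15 detected chemoreceptor genes in each library, in CPM on a log axis; the dashed line marks 1 CPM and open symbols at the left stand for 0 reads. Ir76a and Gr61a have both mutant libraries far to the right of both wild types, while Ir51a and the Ir7 genes have a single wild-type library apart from the rest.

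The comparison of glass mutant with wild type asks which receptor genes differ with genotype. Of the 179 genes, 9 passed the filter on low counts and were tested within the fit of all 9059 genes. With edgeR's quasi-likelihood test and the mutant libraries summed to 1 sample, 0 of 9 were called at an adjusted p under 0.05, as were 0% of all genes tested. At an unadjusted p under 0.05 it gave 2 receptor genes, both higher, against 6.44% of all genes higher in the mutant. On the same columns limma-voom called 0 of the 9 (0% of all genes) and DESeq2 called 1, Ir76a, higher. DESeq2 called 5.96% of all genes, 1.68% higher and 4.28% lower. It gave no adjusted p for Or2a, Gr94a and Gr77a, so these could not be called by it. An edgeR fit that enters all 4 libraries as samples called Ir76a and Gr61a higher and 0 lower, against 8.05% of all genes called higher and 11.3% lower. That fit counts technical replicates as samples, which makes its p-values too small, and it only describes and ranks genes. In every fit the p-values measure only the spread between these samples. With summed mutant libraries, leaving out the first or the second mutant library also gave 0 calls.

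Ir76a, an antennal receptor gene tuned to amines such as phenylethylamine, differed most. It had 13 reads in Canton S and 6 in RAL-208, or 1.07 and 0.508 CPM, against 287 and 683 reads in the mutant libraries, or 25.4 and 25.3 CPM. Both mutant libraries lay far above both wild types, and they agree within counting error (ratio 1.01, exact 95% interval 0.874 to 1.16). The pooled reads gave a ratio of 31.9 (exact 95% interval 20.3 to 53.2). The fitted log2 fold change was 5.06 (SE 0.52), with an edgeR adjusted p of 0.208 with summed mutant libraries, 0.00875 with 4 libraries and 1.03e-08 in DESeq2. Among the 9059 genes it ranked 16 by signed log2 fold change, counted from the highest, and so among increases only. Leaving out Canton S gave a log2 fold change of 5.71 and leaving out RAL-208 gave 4.62.

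The co-receptors with which Ir76a is known to act were at a few reads only. Ir25a had 14 and 9 reads in wild type against 2 and 4 in the mutant libraries. Ir76b had 0 and 1 reads in wild type against 0 and 3 in the mutant libraries. Per length (RPKM, CPM per kilobase of exon), the level of Ir76a was 12.0 in each mutant library, against 0.0494 and 0.0412 for Ir25a. In the mutant libraries Ir25a and Ir76b were thus at or near the floor of 3 reads.

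Gr61a, a sugar receptor gene used in glucose taste, was the other gene with a clear separation. It had 24 and 13 reads in Canton S and RAL-208, or 1.98 and 1.10 CPM, and 125 and 268 reads in the mutant libraries, or 11.1 and 9.91 CPM. Again both mutant libraries stood above both wild types, with a pooled ratio of 6.63 (exact 95% interval 4.73 to 9.56). Its log2 fold change of 2.80 (SE 0.53) had an edgeR adjusted p of 0.212 with summed mutant libraries, 0.0167 with 4 libraries and 0.0510 in DESeq2. Without Canton S the log2 fold change was 3.31 and without RAL-208 it was 2.44.

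The sugar receptor relatives of Gr61a were at or near 0. Gr64a, Gr64b, Gr64c, Gr64d and Gr64e had 0 reads in all libraries, which allows at most 0.266 CPM in any of them, and Gr64f had 2 reads, both in the second mutant library. In BDGP6 the exons of Gr64b and Gr64c coincide, and Gr64d shares 97.3% of its exon length with Gr64e. A count of 0 for these 4 genes therefore depends on how shared reads were assigned, which is not known here. Gr5a, the trehalose receptor gene, had 3 and 7 reads in wild type against 1 and 3 in the mutant libraries. Gr43a, a fructose receptor gene, had 8 reads in each wild type and 4 and 6 in the mutant libraries. Of the 9 sugar receptor genes, Gr61a alone reached 1 CPM.

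**Figure D3:**
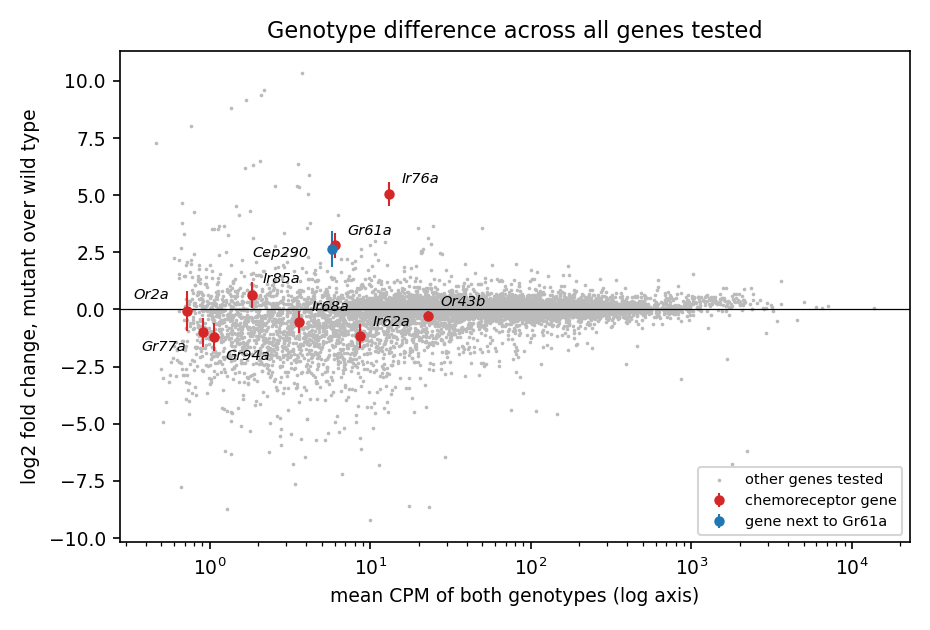
Fitted log2 fold change (mutant over wild type, edgeR with summed mutant libraries) against mean CPM on a log axis for all 9059 genes tested; red points are the 9 tested chemoreceptor genes and the blue point is Cep290, with bars of 1 SE. Ir76a and Gr61a lie well above the other 7 receptor genes, whose fold changes run from -1.20 for Gr94a to 0.63 for Ir85a.

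Gr61a had a neighbour with a like difference, and Ir76a did not. Cep290, which encodes a protein of the ciliary transition zone and adjoins Gr61a on the same strand, 224 bases away in BDGP6, was at 2.48 and 0.762 CPM in wild type against 10.2 and 9.65 CPM in the mutant libraries. Its mutant level was thus 6.13-fold the wild-type level, beside 6.81-fold for Gr61a by mean CPM. Its log2 fold change was 2.66 (SE 0.79), with an edgeR adjusted p of 0.264 with summed mutant libraries, 0.0405 with 4 libraries and 0.145 in DESeq2. Leaving out Canton S gave 3.77 and leaving out RAL-208 gave 2.06, so its size depends on the strain used. JMJD5, on the other side of Gr61a, was at 22.9 and 28.3 CPM against 22.8 and 21.3. Dci, the gene beyond Cep290, was at 24.5 and 40.2 CPM against 24.5 and 23.5, and was chosen for mention after its values were seen.

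Around Ir76a no neighbour with reads differed to a like degree. CG14102, which overlaps it, was at 7.67 and 9.32 CPM in wild type against 9.03 and 8.47 in the mutant libraries. SREBP, a regulator gene of lipid synthesis on the same strand, was at 185 and 202 CPM against 252 and 254, a 1.30-fold higher mean (edgeR adjusted p 0.239 with summed mutant libraries, 0.0217 with 4 libraries). TORIP on the other side was at 89.5 and 90.9 CPM against 81.5 and 87.1. Of 9 matched sensory cilium markers 7 were tested and 0 were called by either edgeR fit. The summed level of the 9 was 156 and 164 CPM in wild type against 162 and 163, much of it Oseg4. At low levels, Oseg5 was at 0.330 and 0.254 CPM against 1.51 and 0.961 (edgeR adjusted p 0.289 with summed mutant libraries, 0.0559 with 4 libraries). Likewise nompB was at 0.330 and 0.339 CPM against 1.06 and 0.703, and nompC at 0.0825 and 0.932 CPM against 1.24 and 1.22. At a higher level btv went the other way, at 12.7 and 14.9 CPM against 7.97 and 8.73 (edgeR adjusted p 0.406 with summed mutant libraries, 0.064 with 4 libraries). Of the 7 tested markers, 5 had a log2 fold change above 0 and 2 below 0 with summed mutant libraries, with a median of 0.24.

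**Figure D4:**
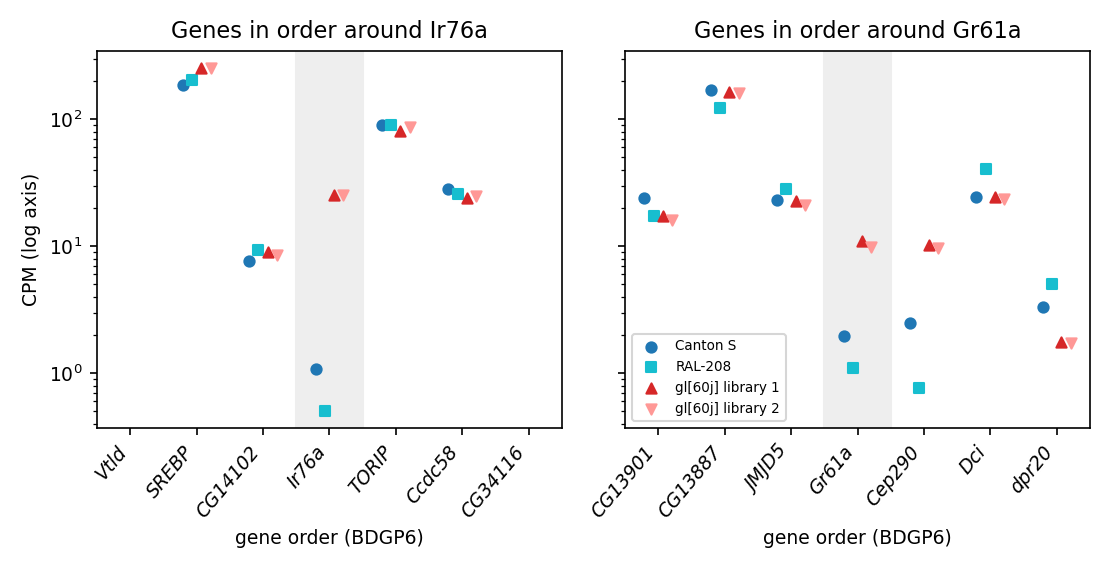
CPM in each library, on a log axis, of the genes in genome order (BDGP6) around Ir76a and Gr61a; the shaded column is the receptor gene and genes with 0 reads have no points. On the left Ir76a alone separates the genotypes widely, and on the right Gr61a and the adjacent Cep290 do so together.

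The other 3 ionotropic receptor genes tested were not called by any of the fits with both strains. Ir62a, a divergent member, had 102 and 189 reads in wild type against 57 and 142 in the mutant libraries. That is at least 8.42 CPM in both strains and at most 5.25 CPM in the mutant, so the groups did not overlap. Its host gene Iml1 was at 120 and 125 CPM against 82.5 and 87.3. The log2 fold change of Ir62a was -1.16 (SE 0.54, edgeR adjusted p 0.403 with summed mutant libraries and 0.0891 with 4 libraries), and the strains themselves differed by 1.90-fold (exact 95% interval 1.49 to 2.44). Ir68a, a receptor of moist air sensing, was at 3.71 and 4.91 CPM against 3.01 and 2.74, a log2 fold change of -0.54 (SE 0.49). Ir85a, another divergent member, was at 1.82 and 1.19 CPM against 2.04 and 2.29, while its host Pif1A was at 23.9 and 38.1 CPM against 13.9 and 13.5.

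Neither of the odorant receptor genes tested was called by any of the fits with both strains, though DESeq2 gave Or2a no adjusted p. Or43b, an odorant receptor gene of the adult antenna, was at 23.6 and 27.4 CPM in wild type against 20.5 and 19.7 in the mutant, a log2 fold change of -0.28 (SE 0.22). It was the most abundant member by length in the wild types, at 16.7 and 19.4 RPKM, beside the overlap with Cul1 given above. Or2a, also used by larvae, had 5 and 15 reads in wild type against 3 and 26 in the mutant libraries. Its groups overlapped, and the mutant libraries differed from each other more than the genotypes did (ratio 0.276, exact 95% interval 0.0535 to 0.902). Of 25 odorant receptor genes listed as larval, Or2a alone reached 1 CPM and 11 had 0 reads in all libraries.

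Of the gustatory receptor genes besides Gr61a, Gr94a was at 1.65 and 1.27 CPM in wild type against 0.886 and 0.481 in the mutant. Gr77a was at 0.990 and 1.44 CPM against 0.708 and 0.518. Both had the mutant libraries below the wild types, by 1.98-fold in mean CPM for Gr77a and with a log2 fold change of -1.20 (SE 0.61) for Gr94a. The edgeR adjusted p with summed mutant libraries was 0.433 for Gr94a and 0.524 for Gr77a. Gr93a, a bitter receptor gene used in caffeine taste, had 9 reads in each wild type and 15 in each mutant library, and it reached 1 CPM only in the shallower of them. None of the 4 matched bitter co-receptor genes or the 2 Gr28 genes reached 1 CPM. The carbon dioxide receptor genes Gr21a and Gr63a together had 1 read, in RAL-208. By CPM, 3 of the 9 tested receptor genes had both mutant libraries above both wild types and 5 had both below, where the same held for 26.2% and 41.0% of all genes tested. On the scale of CPM plus 1, Ir76a and Gr61a were the only 2 of the 9 tested for which both mutant libraries exceeded both wild types by at least 2-fold, against 1.07% of all genes tested, and 0 were 2-fold lower, against 5.63%.

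Co-receptor reads were few in all libraries, and their sum per library total was lower in the mutant, mostly through Ir25a and Ir93a. Summed over all genes below 1 CPM in every library, wild type was likewise higher, at 1.48-fold the mutant. The 5 co-receptors Orco, Ir8a, Ir25a, Ir76b and Ir93a together had 21 and 22 reads in the wild types, or 1.73 and 1.86 CPM, and 6 and 9 reads in the mutant libraries, or 0.531 and 0.333 CPM. Ir25a, the most widely used of them, was at 1.16 and 0.762 CPM against 0.177 and 0.148, a pooled ratio of 6.14 in favour of wild type (exact 95% interval 2.43 to 18.4). That interval covers counting error only. With summed mutant libraries and no filter on low counts, edgeR did not call Ir25a (log2 fold change -2.45, SE 0.73, adjusted p 0.439). Ir93a, a co-receptor of temperature and humidity sensing, had 5 and 9 reads against 3 and 2. Ir8a, the co-receptor of acid sensing, had a single read, in the first mutant library, and Ir76b, given above, was not lower in the mutant. The antennal receptor Ir41a takes part in sensing polyamines. It had 5 and 15 reads in wild type against 2 and 3 in the mutant libraries. The pooled ratio was 6.41 in favour of wild type (exact 95% interval 2.33 to 21.9, counting error only). Ir41a reached 1 CPM in RAL-208 only, so the threshold itself selected it where it was high. With summed mutant libraries and no filter on low counts, edgeR did not call Ir41a (log2 fold change -2.503, SE 1.13, adjusted p 0.4997). Of 17 antennal ionotropic receptor genes 4 reached 1 CPM and 4 had 0 reads. Their sum was 7.92 and 9.91 CPM in wild type against 29.5 and 28.7, most of it Ir76a.

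Neuronal transcripts were lower beside these receptors. The summed level of 5 neuron markers was 690 and 820 CPM in wild type against 310 and 306 in the mutant, and the fit of 4 libraries put all 5 among its lower calls, as it did 11.3% of all genes. With summed mutant libraries 0 of these markers were called. The 6 fat body markers summed to 19790 CPM in Canton S but 10500 in RAL-208, against 2798 and 2722 in the mutant. In RAL-208, Fbp1, Fbp2 and Lsp2 stood below both mutant libraries (Fbp1 at 56.8 CPM against 1894 and 1840), and in Canton S above them. Of 7 matched larval brain markers 6 were tested, with a median log2 fold change of -2.07 and 3 lower calls in that fit. Their sum of 40.7 and 73.4 CPM against 45.5 and 38.5 was carried by ple, at 16.6 and 5.59 CPM against 39.4 and 33.5, while the other 6 had lower mean levels in the mutant (Vmat 12.7 and 33.2 CPM against 2.39 and 2.07). For Ilp2 the lower mean rests on RAL-208, at 0.743 and 15.8 CPM in wild type against 0.708 and 0.518. Any part of these markers in the levels of those receptor genes with lower means in the mutant was not tested. In these bulk samples fewer cells of a type and less RNA per cell cannot be told apart.

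The 164 undetected receptor genes summed to 8.75 and 14.6 CPM in wild type and to 6.29 and 5.10 in the mutant libraries. Of the 93 with any read, 56 (60.2%) were lower in the mutant by pooled reads and 37 higher. Among all 5453 genes below 1 CPM in every library, 3000 had reads and 62.8% of those were lower in the mutant. The summed level in wild type was 2.05-fold that in the mutant for the receptor genes and 1.48-fold for all such genes.

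Several receptor genes differed between the wild-type strains themselves. With 1 library per strain there is no test, and the ratios carry counting error only. Of the 15 detected receptor genes, 6 were at least 2-fold apart between Canton S and RAL-208, where the share over all 9432 genes detected was 11.6%. Of these, Ir7f, Ir7g, Or2a, Ir41a and Ir51a reached 1 CPM only in the strain where they were high, so the threshold itself selected for a difference and nothing is read from the count. Ir51a had 51 reads in Canton S, or 4.21 CPM, and 2 in RAL-208, or 0.169 CPM, a ratio of 24.8 (exact 95% interval 6.53 to 211). The mutant libraries had 5 and 8 reads of it, and so lay near RAL-208. Ir51a is the receptor whose mean CPM in wild type, 5.93-fold that of the mutant, rests on Canton S alone. Its neighbours CG11807 (38.5 and 40.7 CPM) and row (337 and 353 CPM) were at like levels in both strains.

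On the X chromosome the adjacent genes Ir7e, Ir7f and Ir7g had reads almost exclusively in RAL-208. Together they had 35 reads there, against 1 in Canton S and 0 and 2 in the mutant libraries. Ir7f had 15 reads in RAL-208 and 0 in each of the other libraries. The ratio of RAL-208 to Canton S has no finite value there, and its exact 95% interval starts at 3.68. Ir7g had 17 reads in RAL-208 and 1 in Canton S, a ratio of 17.5 (exact 95% interval 2.73 to 729). Acat1, the next gene on the other side of Ir7g, was at 89.8 CPM in RAL-208 and at 55.7 CPM in Canton S, with 58.2 and 57.9 in the mutant libraries. Or2a and Ir41a each had 15 reads in RAL-208 and 5 in Canton S, and Ir76a had 6 and 13. Any difference of Ir51a, Ir7f or Ir7g between genotypes therefore rests on 1 wild-type strain.

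**Figure D5:**
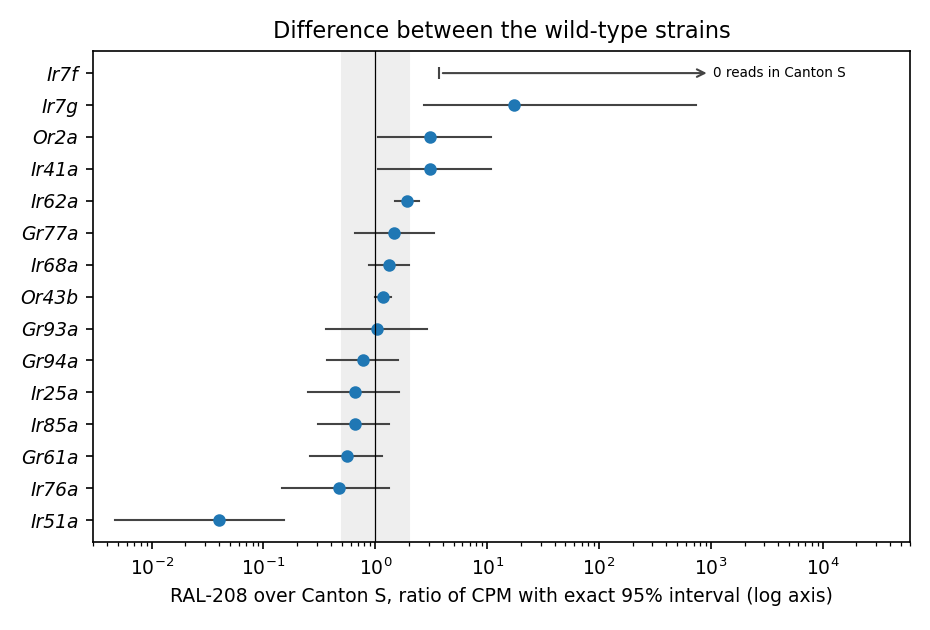
Ratio of RAL-208 to Canton S in CPM for the 15 detected receptor genes, with exact 95% intervals of counting error, on a log axis; the shaded band spans 2-fold in either direction. Ir51a lies far to the Canton S side, Ir7f (0 reads in Canton S) and Ir7g far to the RAL-208 side, and most intervals include 1.

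Genes that work with the receptors were read as companion lists. Of 77 odorant-binding and other perireceptor genes, 16 reached 1 CPM and 13 were tested, with a median log2 fold change of -0.73 against 0.0014 for all genes. By the fit of 4 libraries 2 were lower and 2 higher, where 11.3% of all genes were lower and 8.05% higher, so that the counts are near the background. With summed mutant libraries 0 were called in any of these companion lists. Obp44a, which encodes an odorant-binding protein, was at 583 and 751 CPM in wild type against 123 and 121 in the mutant, and CheA29a was at 0.908 and 1.02 CPM against 0.177 and 0.185. In the other direction Phk-3, a chemosensory protein gene, was at 27.1 and 35.7 CPM against 60.9 and 64.9, and Obp83g at 5.03 and 5.93 CPM against 16.2 and 12.2.

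Among 12 matched transcription factor genes of olfactory neurons, 11 were tested, with 5 lower and 2 higher calls in the fit of 4 libraries, where 11.3% and 8.05% of all genes were called (median log2 fold change -0.39). The POU factor acj6, which selects odorant receptor genes, was at 3.05 and 3.64 CPM in wild type against 0.443 and 0.444 in the mutant. The Runt-domain factor lz, needed for olfactory and eye cell fates, was at 79.0 and 70.1 CPM against 22.0 and 20.7. The antennal identity gene dan was at 130.1 and 118 CPM against 197 and 196. The proneural gene amos, which founds many olfactory sense organs, had at most 0.0825 CPM in any library, while ato, which founds others and the first photoreceptors, had a mean of 65.8 CPM and a log2 fold change of -0.15 (SE 0.16). The glutamate receptor genes related to the ionotropic receptors had a median of -1.07 over 10 tested of 13 matched, with 6 called lower and 0 higher by the fit of 4 libraries, beside the same 11.3% and 8.05% of all genes. Ekar, of the kainate type, was at 68.7 and 47.2 CPM in wild type against 0.797 and 0.555 in the mutant. GluRIA was at 6.52 and 8.98 CPM against 1.42 and 0.813, and KaiR1D at 25.0 and 24.3 CPM against 5.31 and 6.51. Of the other chemosensory channel genes, 5 of 11 were tested and 0 were called. The heat sensor gene TrpA1 among them was at 1.07 and 0.932 CPM against 0.177 and 0.333.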

How the data were processed

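The authors deposited 1 table of whole-number read counts per FlyBase gene for each of the 4 libraries, without normalization. Per the submitters' processing notes, CASAVA 1.8, TopHat2 2.0 and HTSeq were used with build dm3. How reads were assigned (mode, strand, annotation) is not given in the sources used here. The counter's summary lines were left out; gene reads made up 74.4% to 76.7% of each total. Symbols came from the reference table by FlyBase identifier (13746 of 14885 matched), and gene order, overlap and exon length from the BDGP6 annotation. As that is not dm3, no coordinates are given.

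Counts were fitted across all genes with edgeR 4.0.16 in R 4.3.3 (TMM, filterByExpr at a minimum count of 10 on the 4 libraries by genotype, quasi-likelihood F test, Benjamini-Hochberg at 0.05). The mutant libraries were summed, since they are technical replicates. This assumes that the mutant varies as the wild types do, whose spread gives 1 residual degree of freedom. Standard errors are the log2 fold change divided by the square root of F. Ratios of pooled reads have exact binomial intervals, and folds by mean CPM are not TMM-scaled. DESeq2 1.42.0, limma-voom (limma 3.58.1) and a fit of 4 libraries were alternatives. The fits were also run on simulated counts with the same spread for all genes. Only the slope of fitted against true fold change was checked there, not the calls. Genes named are every receptor gene at 1 CPM or tested, the co-receptors, the sugar receptor clade, neighbours of the genes called by the fit of 4 libraries, and up to 4 genes per companion list by smallest p; ato, amos, Dci, Iml1, Cul1, Pif1A, Acat1, Or83a, Ir7e, the neighbours of Ir51a and the carbon dioxide receptors were chosen outside that rule, some after their values were seen. The sensory cilium markers nompB, nompC and Oseg2 and the larval brain marker Ilp2 were also chosen outside that rule, Oseg2 and Ilp2 after their values were seen. The members and lists were chosen with earlier results of these data known.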

Additional observations from a re-analysis of the deposited data

How the results depend on the processing

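With summed mutant libraries edgeR called 0 of all genes. The fit of 4 libraries called 1754 and DESeq2 540, whereas limma-voom, RLE size factors, no filter on low counts and a filter on the 3 columns (added after seeing the data) called 0. Leaving out 1 library gave 0 to 5649 calls. Of the receptor genes, the fit of 4 libraries called 2 and DESeq2 1, and leaving out 1 library gave 0 to 8. The 8 came without Canton S (Ir76a and Gr61a higher; Or43b, Ir62a, Ir68a, Ir41a, Ir7f and Ir7g lower) and 6 came without RAL-208 (Ir76a and Gr61a higher; Ir62a, Ir51a, Ir25a and Or83a lower). With 1 wild-type library the spread comes from technical replicates alone, so those p-values are too small. The receptor genes tested were 14 without Canton S, the fit with 5649 calls among 9434 genes, and 13 without RAL-208. Calls were common among all genes in both fits, without Canton S and without RAL-208, so nothing is read from the receptor calls of either. Detected receptor genes numbered 15, but 27 at 0.5 CPM, 7 at 2 CPM, 5 when 1 CPM was asked of every library, 47 at 3 reads in a library, 9 among members overlapping no other gene (added after seeing the data), and 10 to 15 without 1 library. Over all 179 receptor genes, the count 2-fold apart in all libraries ran from 2 to 5 without 1 library. Ir62a, Ir7f and Ir7g were added without Canton S and Ir51a without RAL-208, all lower in the mutant. The share over all genes was not computed for these settings. Single log2 fold changes kept their sign in 87 of 90 alternative values. The 3 reversals were of Or2a, at 0.072 in limma-voom and from -1.56 to 0.91 without 1 library (0.29 without the first mutant library, 0.91 without RAL-208), against -0.07; its reads are few and the cause was not tested. No paired analysis was possible because the labels number the mutant libraries alone. At this depth most receptor genes below 1 CPM had too few reads to be tested.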
